A study of Danio rerio with 32 samples.

Results

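Fatty acid oxidation was followed through 9 listed gene symbols, namely the receptors pparaa and pparab, the carnitine palmitoyltransferases cpt1aa, cpt1ab, cpt1b and cpt2, the acyl-CoA dehydrogenases acadm and acadvl, and the trifunctional protein subunit hadhaa. Genes were taken where their Ensembl zebrafish symbol equalled a listed one with case ignored, and a gene named ppara was also accepted. This gave 8 of the 32520 genes in the files: pparaa (ENSDARG00000031777), PPARA (ENSDARG00000054323), cpt1ab (ENSDARG00000062054), CPT1B (ENSDARG00000058285), CPT2 (ENSDARG00000038618), ACADM (ENSDARG00000038900), ACADVL (ENSDARG00000016687) and hadhaa (ENSDARG00000057128). No gene carried the symbols pparab or cpt1aa. RefSeq lists ppara as another name of pparab and cpt1a as another name of cpt1aa, so PPARA may be the gene now called pparab, and CPT1A (ENSDARG00000059770) is described beside the 8 genes without being counted among them.

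The 32 RNA libraries came from whole larvae of zebrafish aged 20 days post fertilization and fall into 10 groups of 2 experiments. In experiment 1 the lines were wild-type EK, larvae with the older pllp allele pd1116, in which a survival defect under restricted feeding is described as adapted, and larvae with the newer pllp allele pd1245, which is described as still having that defect. Larvae were fed one of 2 diets, high protein (HP) or low protein (LP), and 3 libraries were made for each line on each diet. Experiment 2 held EK and an adapted pd1245 line, each fed HP (3 libraries) or LP (4 libraries). The molecular nature of the alleles and the number of larvae, tanks or clutches behind a library are not given in the sources used here, so p-values measure the spread between these samples, which may be technical.

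Mitochondrial beta-oxidation burns fatty acids in cycles that each shorten the chain and release acetyl-CoA. Long chains reach the matrix through the carnitine shuttle: CPT1 on the outer mitochondrial membrane makes acylcarnitines, the gate at which entry is controlled, and CPT2 on the inner membrane turns them back into acyl-CoA. The nuclear receptor PPAR alpha binds fatty acids, pairs with retinoid X receptors and, in fasted mouse liver, raises transcription of the shuttle and of the oxidation enzymes.

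Experiment 1 libraries held 19838912 to 29147958 counts in genes, and those of experiment 2 held 9788601 to 12929536, except replicate 2 of EK on HP with 3713048. The third replicate of pd1245 on LP in experiment 1 stood apart, with 14.28% of its counts in ribosomal protein genes against at most 8.965% in the other 17 libraries. Counts of the 8 genes and of gene lists that involve this library are given with it, and without it where they change. The mutated gene, pllp, which encodes the membrane protein plasmolipin, had a lower mean level in each of the 6 mutant groups than in its EK counterpart. The difference passed the test in pd1116 on HP (log2 fold change −0.81) and LP (−1.08), in pd1245 on LP (−1.43) and in the adapted line on HP (−2.30) and LP (−2.16), but not in pd1245 on HP (−0.32, adjusted p = 0.343). Levels are CPM, the counts of a gene relative to the TMM-scaled size of its library, fold changes are log2 values from edgeR's quasi-likelihood test, p-values are adjusted by Benjamini-Hochberg over all genes tested in the experiment, and a gene is called where the adjusted p is under 0.05.

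Across experiment 1, the low protein diet went with lower transcripts of the carnitine shuttle and oxidation enzymes in pd1245 and with higher pparaa transcripts in both mutants and higher PPARA transcripts in pd1116, whereas no gene of the 8 was called for diet in EK. A call in a mutant and none in EK is no test of a difference between lines. The test of that difference passed for CPT2 in pd1245 and for no other of the 8 genes in either mutant. In pd1245, CPT2, CPT1B, hadhaa, cpt1ab and ACADM fell on LP and pparaa rose, so 6 of the 8 were called in a comparison where 19.1% of all genes were called, and the LP and HP libraries did not overlap for 7 of the 8, as they did not for 31% of all genes. Without the third LP replicate CPT2 alone of the 8 was called, where 11.6% of all genes were. With only the compared groups fitted, 0 of the 8 and 0 of all genes were called for diet in pd1245. In pd1116, PPARA and pparaa rose on LP, 2 of 8 beside 6.79% of all genes called and 2.76% called higher, and no enzyme gene among the 8 was called. Groups did not overlap there for 4 of the 8, beside 35% of all genes. Without the third pd1245 replicate on LP, CPT1B was also called lower in pd1116 (−0.59, adjusted p = 0.0198). In that fit 15.2% of all genes were called and 7.76% called lower. In EK of experiment 1, 0 of 8 were called where 0.154% of all genes were, 35 genes with edgeR and 121 with DESeq2, while 1796 genes had an unadjusted p under 0.05, and 1 of 8 did not overlap, beside 17.3% of all genes. The calls over all 16 comparisons are plotted as a map of fold changes.

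**Figure D1:**
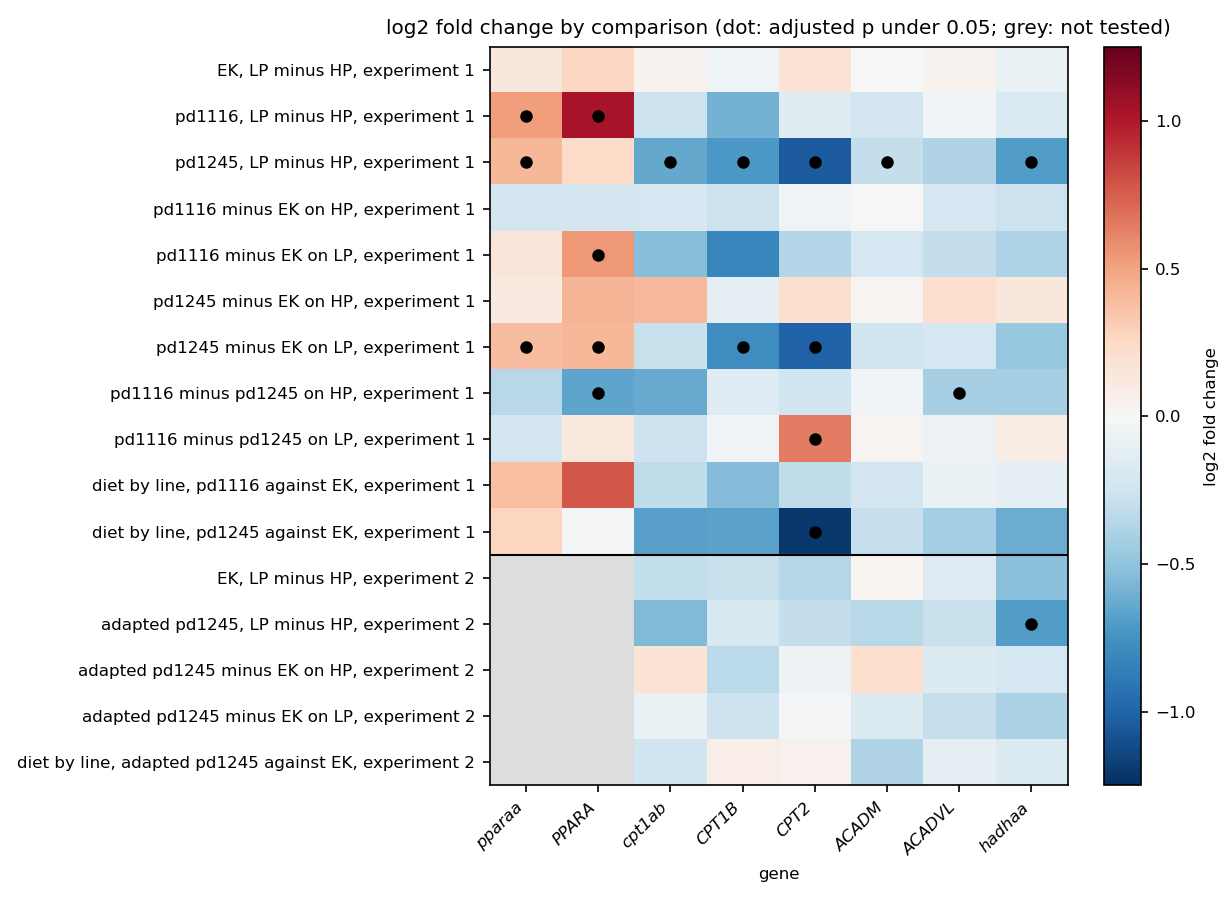
Log2 fold changes of the 8 genes (columns) in 11 comparisons of experiment 1 and 5 of experiment 2 (rows, separated by the black line), where red is higher in the first-named condition and blue lower. Black dots mark adjusted p under 0.05 and grey cells genes not tested; in pd1245 on LP against HP 6 genes are marked, and CPT2 is the gene marked for the difference in diet response between pd1245 and EK.

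The receptors came first. For pparaa, one of the zebrafish PPAR alpha genes, pd1116 libraries on HP held 12.5, 12.7 and 12.4 CPM and those on LP 17.9, 18.8 and 17.1 CPM. The groups did not overlap, and pparaa rose with the diet change (0.52, SE 0.12, adjusted p = 0.0116). In pd1245, HP libraries held 16.2, 17.2 and 14.3 CPM and LP libraries 18.7, 19.9 and 25.02 CPM. These also did not overlap, and pparaa rose there too (0.41, SE 0.11, adjusted p = 0.0188). In EK the values were 13.5, 14.2 and 16.3 CPM on HP and 16.4, 14.8 and 17.3 CPM on LP, overlapping and not called (0.14, adjusted p = 0.86). The difference in diet response from EK did not pass in pd1116 (0.38, SE 0.16, adjusted p = 0.377) or pd1245 (0.27, SE 0.16, adjusted p = 0.308). On LP, pd1245 exceeded EK in all libraries (0.39, SE 0.11, adjusted p = 0.0146). The pd1116 diet call was lost without replicate 3 of pd1116 on HP (adjusted p = 0.0548, range over 12 alternatives 0.00125 to 0.0548). The pd1245 diet call was lost without replicate 3 of pd1245 on HP (adjusted p = 0.104) or on LP (0.28, adjusted p = 0.0774) and with a fit of the compared groups alone (adjusted p = 0.185), in a range of 0.00751 to 0.185. The difference between pd1245 and EK on LP no longer passed with EK replicate 2 left out (adjusted p = 0.0772), without replicate 3 of pd1245 (adjusted p = 0.0706) and with only the compared groups fitted (adjusted p = 0.094), in a range of 0.00684 to 0.094.

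PPARA, the other PPAR alpha gene, gave the largest called rise of the 8 in the 16 comparisons. Its pd1116 libraries held 4.04, 5.13 and 5.13 CPM on HP and 8.23, 10.8 and 10.3 CPM on LP. The level was thus 2.05-fold higher on LP with no overlap (log2 1.03, SE 0.15, adjusted p = 0.000489), and the call held in all 12 alternatives run, with adjusted p from 8.44e-08 to 0.00486. EK libraries held 5.64, 5.33 and 5.89 CPM on HP and 7.11, 6.52 and 6.49 CPM on LP, which did not overlap but were not called (0.26, adjusted p = 0.752). In pd1245 PPARA overlapped between diets and was not called (0.24, adjusted p = 0.249). The pd1245 response differed from that of EK by −0.01 (SE 0.21, adjusted p = 0.979). The diet response of pd1116 exceeded that of EK by 0.78 (SE 0.21), which did not pass the test (adjusted p = 0.194). It passed without replicate 3 of pd1245 on LP (0.77, adjusted p = 0.0438) and with a fit of the compared groups alone (adjusted p = 0.0392), in a range of 0.0392 to 0.423.

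Between lines, PPARA differed on both diets. On HP, pd1245 libraries held 7.56, 7.67 and 7.47 CPM, above every pd1116 library (pd1116 minus pd1245, −0.66, SE 0.15, adjusted p = 0.00704), and this call held in all 12 alternatives. In that comparison 2 of 8 genes were called lower in pd1116, PPARA and ACADVL, against 5.91% of all genes called lower and 11.9% called in either direction. Without the third pd1245 replicate on LP, 4 of 8 were called lower there, beside 9.91%. On LP, PPARA was higher in pd1116 than in EK (0.54, SE 0.15, adjusted p = 0.0308), the 1 gene of the 8 called there, where 6.68% of all genes were called and 2.82% called higher. That call was lost without any 1 of the 3 EK libraries on LP or without replicate 2 or 3 of pd1116, with adjusted p up to 0.122 and down to 0.00552 over 12 alternatives. PPARA on LP was also called higher in pd1245 than in EK (0.42, SE 0.15, adjusted p = 0.0377), although the pd1245 values of 8.90, 10.9 and 6.95 CPM overlapped those of EK. This was lost in 7 of 11 alternatives, among them leaving out any 1 EK library, replicate 1 of pd1245 (adjusted p = 0.0667) or replicate 2 (0.24, adjusted p = 0.24).

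**Figure D2:**
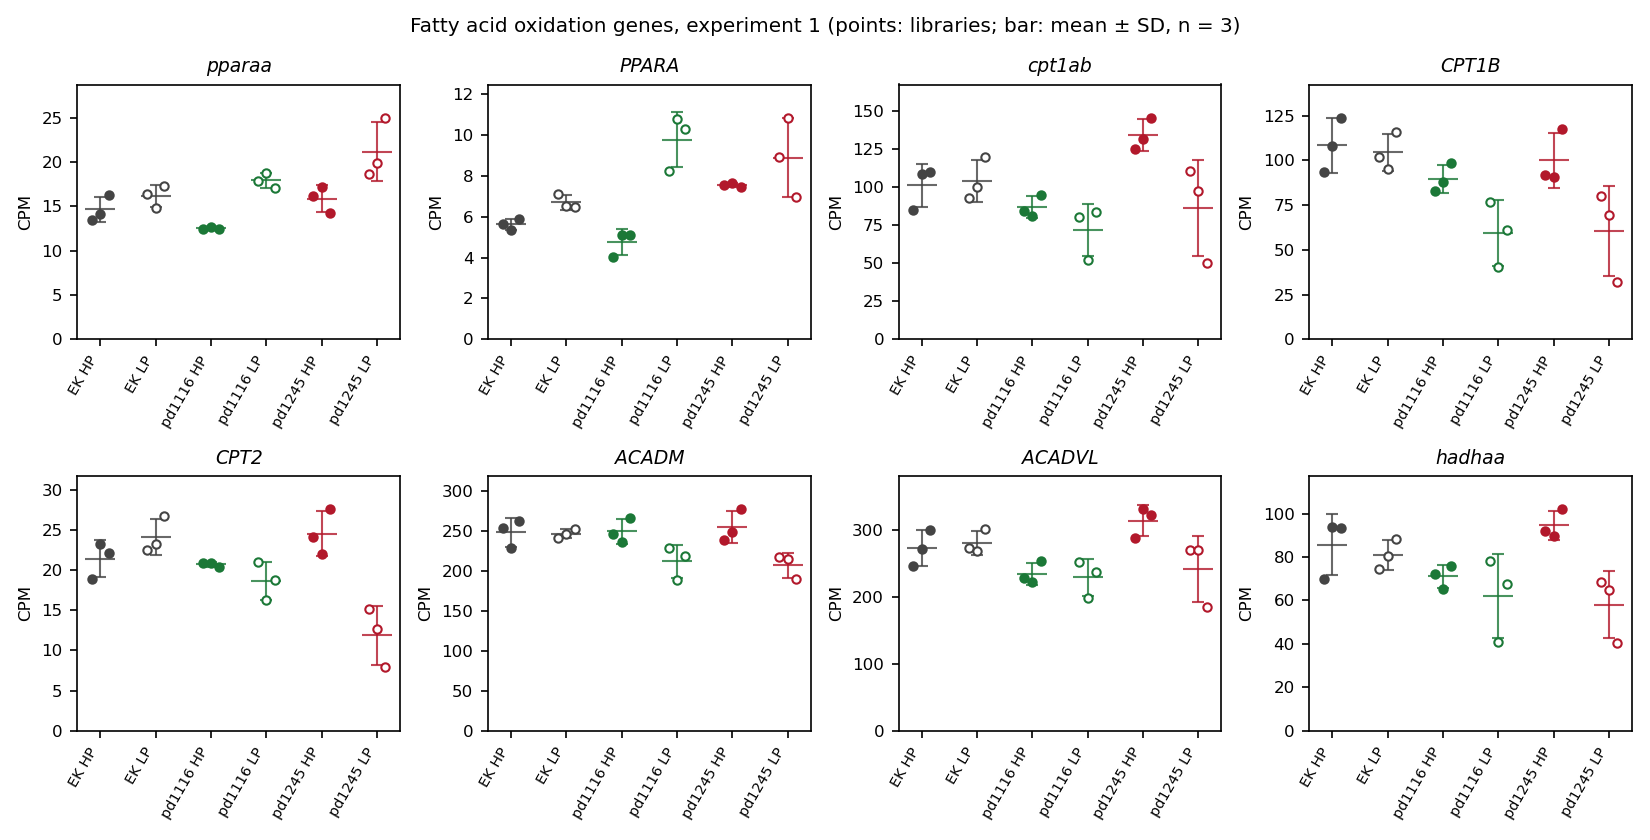
CPM of the 8 genes in the 18 libraries of experiment 1 (1 panel a gene, axis from 0; filled points HP, open points LP; horizontal bar and whiskers, mean ± SD of 3 libraries; grey EK, green pd1116, red pd1245). CPT2 in pd1245 on LP lies at 7.91 to 15.1 CPM, below every other library, and PPARA in pd1116 at 8.23 to 10.8 CPM on LP against 4.04 to 5.13 on HP.

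Of the carnitine shuttle, CPT2 showed the clearest difference between lines. Its pd1245 libraries held 24.1, 22.0 and 27.6 CPM on HP and 15.1, 12.6 and 7.91 CPM on LP. All 3 LP values lay below every other library of experiment 1. CPT2 fell by 1.04 on the log2 scale (SE 0.16, adjusted p = 0.00114), and it fell by 0.83 (adjusted p = 0.00103) without replicate 3 of pd1245 on LP. EK libraries held 18.9, 23.3 and 22.1 CPM on HP and 22.5, 23.2 and 26.7 CPM on LP, overlapping and not called (0.17, adjusted p = 0.892). The difference between these diet responses itself passed the test (−1.21, SE 0.23, adjusted p = 0.00824), and CPT2 was the 1 gene of the 8 called, where 5.7% of all genes were called and 3.4% called lower. This call held in all 17 alternatives, with values of −1.43 to −1.01 and adjusted p from 8.51e-05 to 0.0349. The fall within pd1245 was lost in 1 of 11 alternatives, the fit of only the compared groups (adjusted p = 0.099, range 3.5e-07 to 0.099).

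CPT2 on LP was also lower in pd1245 than in EK (−1.01, SE 0.16, adjusted p = 0.00027), a call that held in all 11 alternatives (adjusted p 1.38e-07 to 0.0243). The pd1116 libraries held 20.9, 20.9 and 20.4 CPM on HP and 21.1, 16.3 and 18.7 CPM on LP, which overlapped (−0.15, adjusted p = 0.634). On LP, CPT2 was higher in pd1116 than in pd1245 (0.64, SE 0.17, adjusted p = 0.0123), the 1 gene of the 8 called, where 20.2% of all genes were called and 9.89% called higher. Without the third replicate of pd1245 the difference was 0.44 (adjusted p = 0.0296), and cpt1ab was then called lower in pd1116 (−0.52, adjusted p = 0.0357). That call of CPT2 was lost without replicate 1 of pd1116 on LP (0.56, adjusted p = 0.0509) and with a fit of the compared groups alone (adjusted p = 0.145, range 0.00191 to 0.145).

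The CPT1 genes of the outer membrane had lower values on LP in pd1245 than on HP, with a wide spread. For CPT1B, called the muscle form in mammals, pd1245 libraries held 92.0, 90.5 and 118 CPM on HP and 80.2, 69.6 and 32.1 CPM on LP. They did not overlap, and CPT1B fell by 0.72 (SE 0.24, adjusted p = 0.0466). The lowest of the LP values was the third replicate, without which the difference was −0.42 (adjusted p = 0.144). The call was also lost without any 1 of the HP libraries (adjusted p 0.0558 to 0.18), with a replicate block (adjusted p = 0.062) and with only the compared groups fitted (adjusted p = 0.209), in a range of 0.0111 to 0.209.

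In pd1116, CPT1B held 82.9, 87.8 and 98.4 CPM on HP and 76.7, 40.3 and 61.3 CPM on LP, which did not overlap but were not called (−0.59, adjusted p = 0.154). Without the third pd1245 replicate on LP this difference passed (−0.59, adjusted p = 0.0198, range 0.0198 to 0.426). EK libraries held 93.2, 108 and 124 CPM on HP and 102, 95.4 and 116 CPM on LP, with no sign of a shift (−0.05, adjusted p = 0.991). On LP, CPT1B was lower in pd1245 than in EK (−0.78, SE 0.24, adjusted p = 0.0213), a call lost without replicate 3 of pd1245 (−0.48, adjusted p = 0.0579), without replicate 3 of EK (adjusted p = 0.0708) and with only the compared groups fitted (adjusted p = 0.104, range 0.00514 to 0.104). The pd1116 difference from EK on LP was as large but was not called (−0.81, SE 0.25, adjusted p = 0.0544). It passed in 5 of 12 alternatives, among them without replicate 3 of pd1245 (adjusted p = 0.00292), which enters that fit through its estimate of the spread, and without replicate 1 of pd1116 (−1.04, adjusted p = 0.0359), in a range of 0.00292 to 0.204.

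For cpt1ab, a CPT1A gene by name, pd1245 libraries held 125, 132 and 146 CPM on HP and 110.5, 97.4 and 50.4 CPM on LP. They did not overlap, and cpt1ab fell by 0.64 (SE 0.21, adjusted p = 0.0429). Without the third LP replicate the difference was −0.37 (adjusted p = 0.138). The call was lost as well without any 1 HP library (adjusted p 0.0649 to 0.141), with a replicate block (adjusted p = 0.0617) and with only the compared groups fitted (adjusted p = 0.203), in a range of 0.00982 to 0.203. The HP values of pd1245 lay above all EK libraries, which held 84.8, 109 and 110.2 CPM on HP, although that difference was not called (0.41, adjusted p = 0.348). In pd1116 the values were 84.5, 81.0 and 95.2 CPM on HP and 80.3, 52.1 and 83.6 CPM on LP, overlapping and not called (−0.27, adjusted p = 0.488).

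CPT1A, the gene beside the 8, did not share this pattern in pd1245. Its libraries held 26.6, 27.0 and 24.8 CPM on HP and 23.4, 23.6 and 25.1 CPM on LP, which overlapped (−0.12, adjusted p = 0.295). In pd1116 the values were 28.3, 27.8 and 28.3 CPM on HP against 23.1, 22.6 and 23.7 CPM on LP, and CPT1A fell by 0.28 (SE 0.08, adjusted p = 0.0396). That fall was lost in 8 of 12 alternatives, namely without any 1 of the 6 pd1116 libraries (adjusted p 0.0867 to 0.122), without the filter (adjusted p = 0.0768) and with a replicate block (adjusted p = 0.0568), in a range of 0.0125 to 0.122.

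Of the acyl-CoA dehydrogenases, which take the first step of each cycle, ACADM handles medium chains. Its pd1245 libraries held 239, 249 and 277 CPM on HP and 218, 215 and 189 CPM on LP. They did not overlap, and ACADM fell by 0.30 (SE 0.10, adjusted p = 0.0405). The fall was lost without replicate 3 on LP (−0.24, adjusted p = 0.102), without replicate 2 (adjusted p = 0.0573) or 3 (adjusted p = 0.163) on HP, without the filter (adjusted p = 0.0546) and with only the compared groups fitted (adjusted p = 0.238), in a range of 0.0149 to 0.238. In pd1116 it held 246, 236 and 267 CPM on HP and 229, 189 and 219 CPM on LP, without overlap and without a call (−0.24, adjusted p = 0.156). EK values were within 228 to 263 CPM on both diets (−0.01, adjusted p = 0.995).

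ACADVL, which handles very long chains, did not pass for diet in any line. In pd1245 it held 288, 332 and 324 CPM on HP and 270.5, 271 and 185 CPM on LP (−0.38, SE 0.13, adjusted p = 0.054). The groups did not overlap, and the difference passed with DESeq2 (adjusted p = 0.0348), without replicate 1 on LP (−0.47, adjusted p = 0.0253) and without replicate 2 on LP (−0.47, adjusted p = 0.0344), in a range of 0.0253 to 0.254. On HP it was lower in pd1116, at 229, 223 and 254 CPM, than in pd1245 (−0.42, SE 0.13, adjusted p = 0.0471). That call was lost in 9 of 12 alternatives, among them leaving out any 1 of the 6 libraries, in a range of 0.00401 to 0.156.

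The gene hadhaa encodes an alpha subunit of the trifunctional protein, which carries out the later steps of the cycle on long chains. Its pd1245 libraries held 91.8, 89.8 and 102 CPM on HP and 68.7, 65.0 and 40.5 CPM on LP. They did not overlap, and hadhaa fell by 0.70 (SE 0.20, adjusted p = 0.0207). The call was lost without replicate 3 on LP (−0.50, adjusted p = 0.0754), without replicate 3 on HP (adjusted p = 0.0849) and with only the compared groups fitted (adjusted p = 0.131), in a range of 0.00638 to 0.131. In pd1116 it held 72.0, 65.1 and 76.0 CPM on HP and 78.1, 40.7 and 67.5 CPM on LP, and in EK 69.7, 94.0 and 93.6 CPM on HP and 74.5, 80.4 and 88.3 CPM on LP. Both pairs of groups overlapped and neither was called (−0.19, adjusted p = 0.611, and −0.08, adjusted p = 0.975).

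Read together for pd1245, 1 of the 8 genes was called higher on LP and 5 lower, beside 9.33% and 9.78% of all genes, and the median over the 8 was −0.51 against 0.01 over all genes. Without the third LP replicate the median was −0.30. On LP, 4 of 8 genes differed between pd1245 and EK, beside 31.8% of all genes (16% higher and 15.8% lower), with pparaa and PPARA higher and CPT2 and CPT1B lower. Without that replicate 2 of these 4 were called, PPARA (0.55, adjusted p = 0.0047) and CPT2 (−0.81, adjusted p = 0.0002), beside 27.4%. On HP, 0 of 8 differed from EK in pd1245 (4.16% of all genes called, median 0.17) or in pd1116 (2.9%, median −0.22), and in pd1245 without the third LP replicate PPARA passed (0.43, adjusted p = 0.0322). For pd1116 on LP against EK, leaving that replicate out gave 1 gene called higher and 4 lower, where 12.9% of all genes were called: PPARA higher, and CPT1B, cpt1ab (−0.53, adjusted p = 0.0188), CPT2 (−0.37, adjusted p = 0.0315) and ACADVL (−0.30, adjusted p = 0.044) lower. With all libraries, pd1116 and EK on LP did not overlap for 6 of the 8, beside 33.8% of all genes. For pd1245 and EK on LP this was 5 of the 8, beside 43.2%. In both comparisons 6 of the 8 differences were below 0, with medians of −0.33 in pd1116 and −0.26 in pd1245. Without replicate 3 of pd1245 on LP the medians were −0.33 and −0.13. The diet response of pd1116 against EK had 0 of 8 called. Over all genes, 0.0044% were called, or 1 gene with edgeR and 154 with DESeq2, with 2600 at an unadjusted p under 0.05.

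The rest of the mitochondrial pathway was described by 18 further enzyme genes. In pd1245 on LP against HP, 13 of the 18 fell and 2 rose, beside 9.78% and 9.33% of all genes. The median over the 18 was −0.51 against 0.01 over all genes. ECI1, an isomerase for unsaturated chains, fell from 19.0 ± 1.97 to 10.6 ± 1.96 CPM (SD, n = 3; −0.83, SE 0.14, adjusted p = 0.00139). HADH, a hydroxyacyl-CoA dehydrogenase, fell from 52.8 ± 6.59 to 34.8 ± 3.57 CPM (−0.60, adjusted p = 0.00206), and ACADL, the long-chain acyl-CoA dehydrogenase, from 72.4 ± 7.63 to 47.4 ± 8.76 CPM (−0.61, adjusted p = 0.00346). HADHA (ENSDARG00000060594), the other alpha subunit gene of the trifunctional protein, fell by 0.65 (adjusted p = 0.0059) and HADHB, its beta subunit, by 0.50 (adjusted p = 0.0196, and 0.0683 without the third LP replicate). Both genes that rose carry the symbol ACADSB (ENSDARG00000076780, 0.30, and ENSDARG00000098174, 0.65), an enzyme that acts on branched-chain acyl-CoA from amino acids. Without the third LP replicate 9 fell and 0 rose, beside 6.57% and 5.08% of all genes. Among those that fell were ECI1 (−0.70, adjusted p = 0.00277), HADH (−0.52, adjusted p = 0.00524) and HADHA (−0.47, adjusted p = 0.0101). With only the compared groups fitted, 0 of all genes were called for diet in pd1245, and so 0 of the 18. The same holds for every list given below for this comparison.

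**Figure D3:**
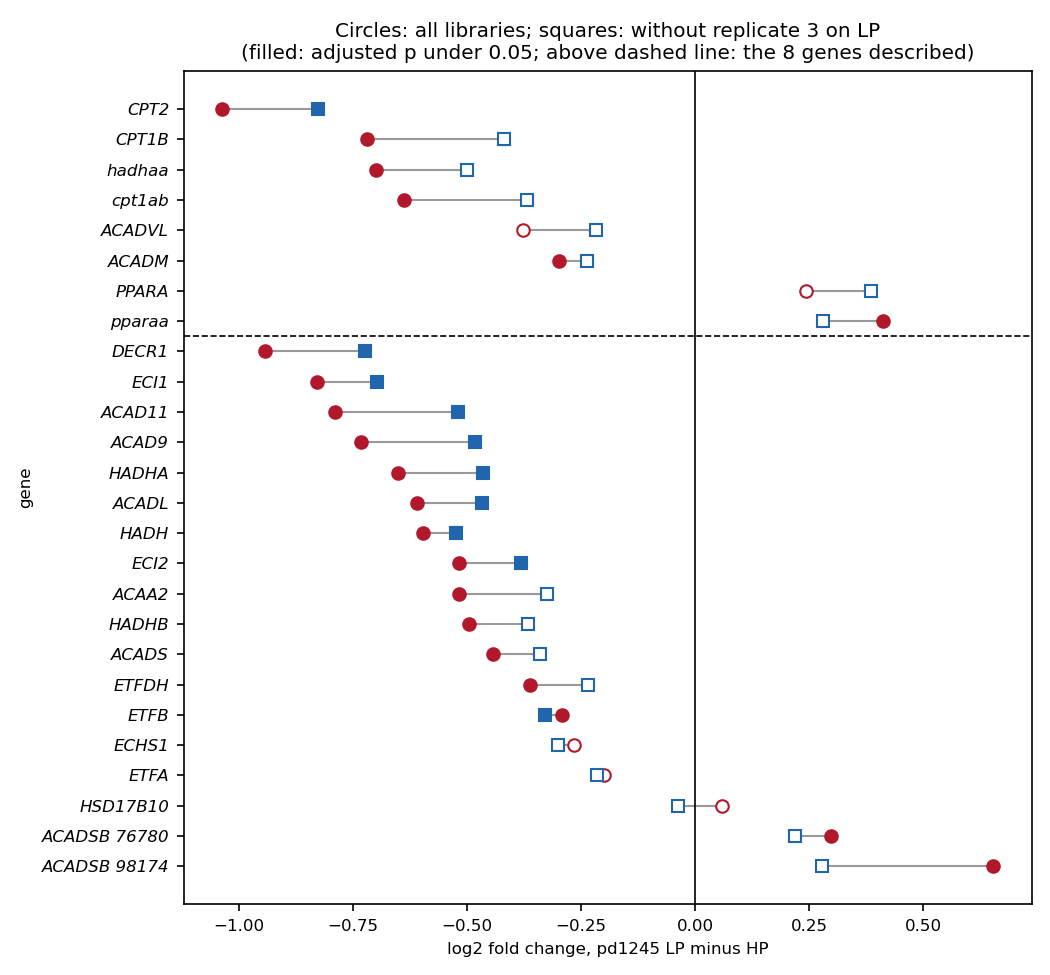
Log2 fold changes of pd1245 on LP against HP for the 8 genes (above the dashed line) and 18 further mitochondrial enzyme genes (below), with all libraries (red circles) and without the third LP replicate (blue squares). Filled symbols passed the test; CPT2 is filled in both settings (−1.04 and −0.83), and 6 filled circles among the 8 genes become 1 filled square.

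On LP, 14 of these 18 genes were lower in pd1245 than in EK and 2 higher, beside 15.8% and 16% of all genes. Without the third replicate 11 were lower and 1 higher, beside 14.5% and 12.9%. HADH was at 34.8 ± 3.57 CPM in pd1245 and 62.8 ± 5.91 CPM in EK (−0.85, adjusted p = 4.26e-05). The diet response was lower in pd1245 than in EK for 6 of the 18, beside 3.4% of all genes. The number was the same without that replicate, beside 3.85%. HADH (−0.76, adjusted p = 0.00958), ECI1 (−0.77, adjusted p = 0.0257) and DECR1 (−1.04, adjusted p = 0.0292), a reductase for unsaturated chains, had the smallest p. In pd1116, 0 of 18 were called for diet, beside 6.79% of all genes. Without the third pd1245 replicate 2 were called lower and 1 higher, beside 7.76% and 7.48%. Against EK on LP, ACADL was lower in pd1116 (−0.44, adjusted p = 0.032), 1 of 18 beside 3.86% of all genes. This became 8 of 18 lower without the third pd1245 replicate, beside 7.01%.

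Peroxisomal beta-oxidation, which shortens very long and branched chains, differed between both mutants and EK on LP. Of its 12 genes, 7 were lower in pd1116, beside 3.86% of all genes, and 10 in pd1245 (9 without the third replicate), beside 15.8%, and 0 were higher in either. In the same comparisons 4 of 12 enterocyte and 4 of 11 hepatocyte markers were lower in pd1116 (8 and 6 without the third pd1245 replicate), and 9 of 12 and 6 of 11 in pd1245 (7 and 9 without it). ABCD3 (ENSDARG00000104085), a peroxisomal membrane transporter, was at 164 ± 9.57 CPM in EK, 103 ± 3.02 CPM in pd1116 (−0.67, adjusted p = 0.000266) and 97.6 ± 5.99 CPM in pd1245 (−0.75, adjusted p = 4.79e-05). The bifunctional enzyme EHHADH was at 18.8 ± 0.990 CPM in EK and 9.98 ± 0.268 CPM in pd1245 (−0.92, adjusted p = 0.000119). The diet response was lower in pd1245 than in EK for 7 of the 12, beside 3.4% of all genes. Within pd1245 7 fell on LP, beside 9.78% (5 without the third replicate, beside 6.57%). Both mutants were compared with the same EK libraries, so these counts are not independent of each other.

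**Figure D4:**
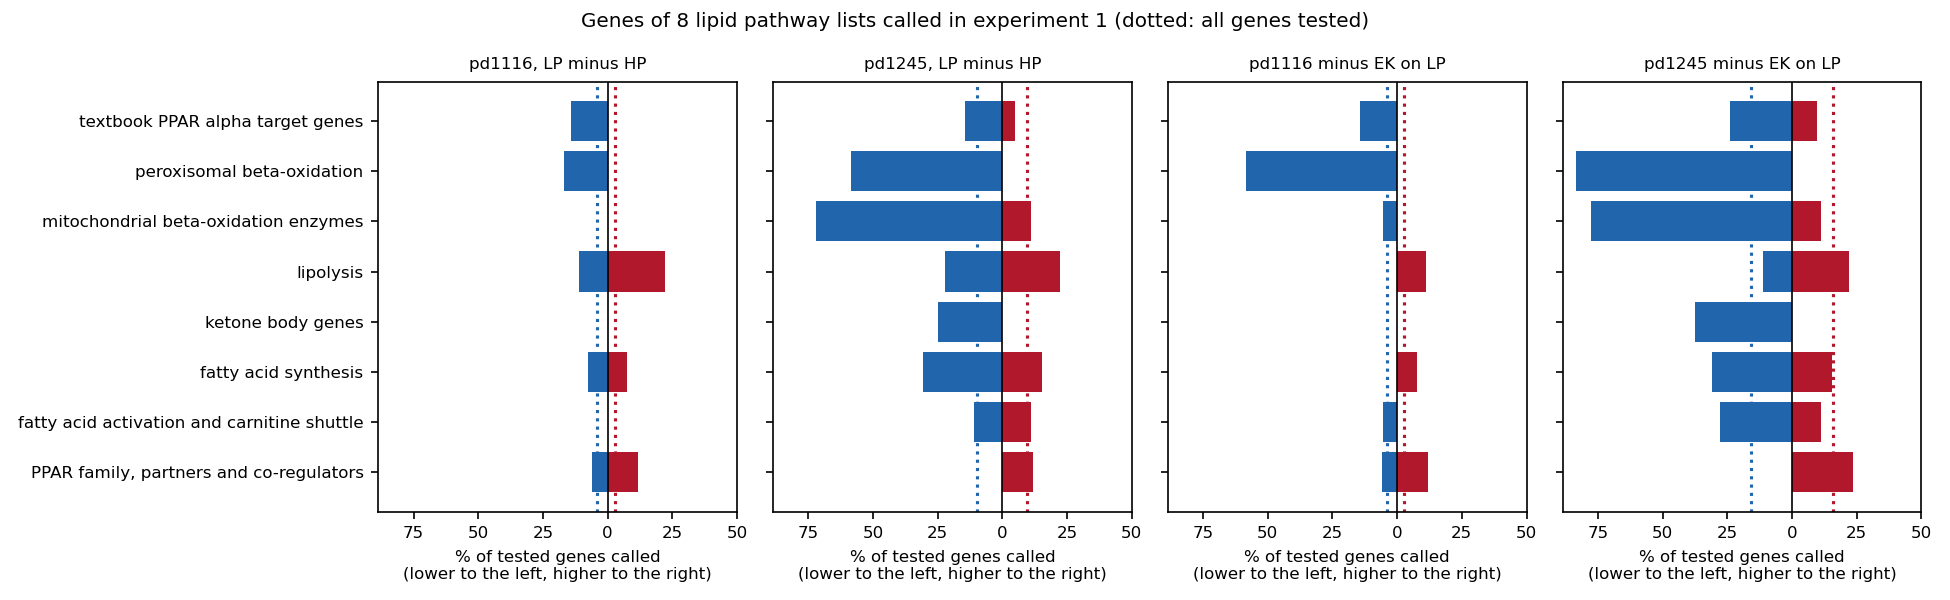
Share of the tested genes of 8 lipid pathway lists called higher (red, to the right) or lower (blue, to the left) in 4 comparisons of experiment 1, with dotted lines for the share over all genes. Mitochondrial enzymes are called lower in 13 of 18 genes in pd1245 on LP against HP, a comparison of diets. With only the compared groups fitted, no gene is called in that comparison. In pd1116 against EK on LP, a comparison of lines, mitochondrial enzymes are called lower in 1 of 18 and peroxisomal genes in 7 of 12. That mitochondrial count rises when the third pd1245 replicate on LP is left out of the fit.

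In the lists around the pathway, calls were fewer, to be read beside 9.33% of all genes called higher and 9.78% lower in pd1245 on LP against HP (5.08% and 6.57% without the third LP replicate). Of 18 genes of fatty acid activation and the wider carnitine shuttle, 2 rose and 2 fell in pd1245 on LP (1 and 1 without the third LP replicate), with CROT, the carnitine transferase of peroxisomes, at 39.0 ± 1.03 CPM on HP and 25.3 ± 5.31 CPM on LP (−0.62, adjusted p = 0.00637). Of 17 genes of the PPAR family and its partners, 2 rose and 0 fell in pd1245: LPIN1, a phosphatidate phosphatase that in mouse liver also acts with PPAR alpha, from 128.5 ± 43.0 to 362 ± 127 CPM (1.496, SE 0.26, adjusted p = 0.00171), and nrip1b, a co-repressor gene (0.33, adjusted p = 0.0365, and 0.155 without the third LP replicate). LPIN1 rose in pd1116 as well (1.00, adjusted p = 0.0247), and its diet response was higher in pd1245 than in EK (1.56, SE 0.36, adjusted p = 0.0206). Of 21 textbook PPAR alpha targets, 1 rose and 3 fell in pd1245 on LP, and 0 rose and 3 fell without the third LP replicate. The uncoupling protein gene ucp3 rose (1.47, adjusted p = 0.00982), at 56.5 ± 16.9 CPM on HP and 157 ± 92.5 CPM on LP, but was not called without the third LP replicate (0.91, adjusted p = 0.0586). ANGPTL4, an inhibitor of lipoprotein lipase, fell from 202 ± 24.2 to 105 ± 23.3 CPM (−0.94, adjusted p = 0.00704). Of 8 ketone body genes 2 fell and 0 rose there, HMGCS1 (−1.10, adjusted p = 0.00413) and oxct1b, which takes part in using ketone bodies (−0.98, adjusted p = 0.0087). HMGCS1 is best known from sterol synthesis.

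Larvae are whole animals, and in such bulk samples fewer cells of a type and less RNA per cell cannot be told apart. Between the diets in pd1245, the summed levels of enterocyte and of adipocyte markers did not overlap. Those of hepatocyte, fast muscle, and slow and cardiac muscle markers did overlap. In pd1245, the summed level of 12 enterocyte markers was 9818 to 12809 CPM on HP and 4607 to 9329 CPM on LP, and 5 of 12 fell and 0 rose (4 and 0 without the third LP replicate). The sum of 8 adipocyte markers was 204 to 249 CPM on HP and 135 to 151 CPM on LP, with 3 of 7 tested genes lower and 1 higher (2 and 0 without that replicate). For 11 hepatocyte markers the sums were 3486 to 6571 CPM on HP and 3281 to 3633 CPM on LP, with 4 of 11 lower and 0 higher (2 and 0 without it). The sum of 17 fast muscle markers was 30668 to 38585 CPM on HP and 35334 to 54935 CPM on LP, with 2 higher and 0 lower (1 and 1 without it). The sum of 16 slow and cardiac muscle markers was 1376 to 1484 CPM on HP and 1320 to 1554 CPM on LP, with 1 of 15 higher and 0 lower (0 and 0 without it). These counts in pd1245 stand beside 9.33% of all genes called higher and 9.78% lower (5.08% and 6.57% without that replicate). In pd1116 on LP against HP, 7 of 11 hepatocyte markers fell and 0 rose, beside 4.04% and 2.76% of all genes. Without the third pd1245 replicate 9 fell and 0 rose, beside 7.76% and 7.48%. The hepatocyte sums in pd1116 were 6839 to 7704 CPM on HP and 4708 to 5289 CPM on LP. Enterocyte sums in pd1116 did not overlap either (12247 to 12660 and 11018 to 11204 CPM), nor did adipocyte sums (246 to 272 and 180 to 214 CPM). In EK of experiment 1 enterocyte and adipocyte sums overlapped. Hepatocyte sums there were higher on LP (5909 to 6257 and 6728 to 7467 CPM) and both muscle sums lower, without overlap. Adipocyte sums were lower on LP without overlap in both lines of experiment 2. None of the markers was at 0 in all libraries of an experiment. The part of tissue composition in the results for the 8 genes was not tested.

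Experiment 2 measured 6 of the 8 genes with enough counts to test. The receptors pparaa and PPARA did not pass the filter, with 1 to 7 and 0 to 4 counts per library, and were not tested. Their group means were 0.246 to 0.481 CPM and 0.0339 to 0.16 CPM, against 12.5 to 21.2 CPM and 4.77 to 9.78 CPM in experiment 1. CPM are relative to library size, and the cause of this gap between the experiments was not tested. In the adapted pd1245 line, hadhaa libraries held 69.6, 68.1 and 53.5 CPM on HP and 42.5, 35.4, 47.0 and 32.1 CPM on LP. They did not overlap, and hadhaa fell by 0.70 (SE 0.16, adjusted p = 0.0305), the 1 gene of 6 called, where 1.88% of all genes were called and 0.78% called lower. Groups did not overlap for 2 of the 6, hadhaa and ACADM, beside 21.7% of all genes. The fall was lost with a replicate block (adjusted p = 0.065) and without replicate 1 (adjusted p = 0.172) or 2 (adjusted p = 0.0645) on HP or replicate 2 (adjusted p = 0.106) or 4 (adjusted p = 0.0888) on LP, in a range of 0.00375 to 0.172.

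EK of experiment 2 also had lower hadhaa values on LP. They were 62.1, 84.0 and 76.5 CPM on HP and 60.7, 42.8, 50.8 and 51.5 CPM on LP, without overlap and without a call (−0.52, SE 0.16, adjusted p = 0.201), and hadhaa was the 1 of 6 without overlap, beside 9.95% of all genes. The diet responses of the lines differed by −0.18 (SE 0.23, adjusted p = 0.903). In EK, 0 of 6 genes were called for diet (0.078% of all genes, 13 with edgeR and 132 with DESeq2, and 1910 at an unadjusted p under 0.05), and for the difference in diet response 0 of 6 were called (0% of all genes, or 0 with edgeR and 1 with DESeq2, and 894 at an unadjusted p under 0.05).

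ACADM in the adapted line held 145, 155 and 139.6 CPM on HP and 117, 111, 125 and 108 CPM on LP, without overlap. The difference was not called by edgeR (−0.35, SE 0.11, adjusted p = 0.097) and was called by DESeq2 (adjusted p = 0.0151), in a range of 0.0151 to 0.284. EK values of ACADM were within 121.5 to 139.9 CPM on both diets (0.03, adjusted p = 0.961). CPT2, the gene with the clearest response in pd1245 of experiment 1, held 11.9, 8.25 and 8.30 CPM on HP and 7.29, 6.92, 9.17 and 7.46 CPM on LP in the adapted line, which overlapped (−0.30, SE 0.18, adjusted p = 0.37). Its diet response there differed from that of EK by 0.05 (SE 0.26, adjusted p = 0.982). The experiments were fitted apart, and the CPT2 responses of the 2 pd1245 lines were not tested against each other.

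**Figure D5:**
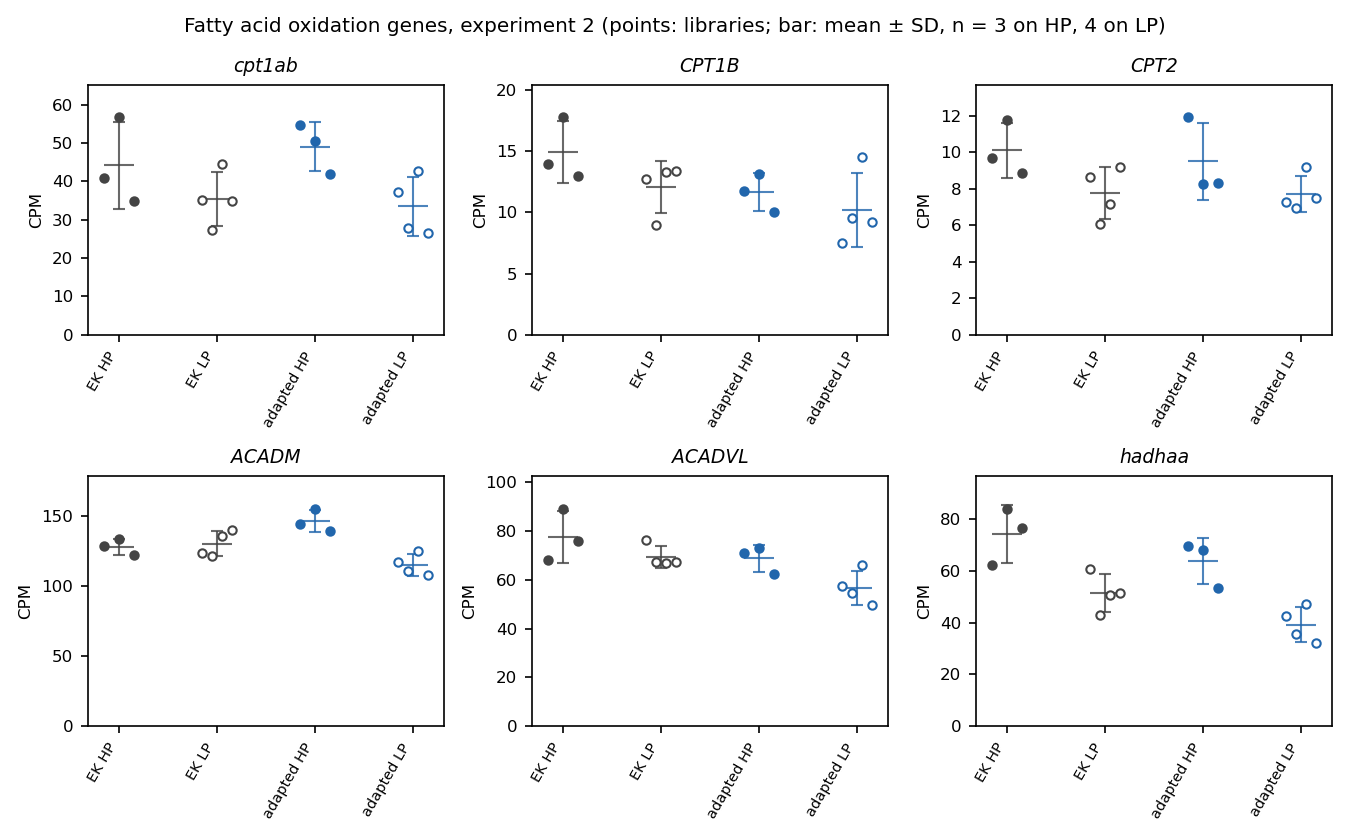
CPM of the 6 genes tested in experiment 2 (1 panel a gene, axis from 0; filled points HP, open points LP; horizontal bar and whiskers, mean ± SD of 3 libraries on HP and 4 on LP; grey EK, blue adapted pd1245). In the adapted line hadhaa lies at 53.5 to 69.6 CPM on HP and 32.1 to 47.0 CPM on LP, while its CPT2 values overlap.

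The remaining genes of experiment 2 were not called in any comparison. In the adapted line cpt1ab held 54.8, 50.5 and 42.0 CPM on HP and 37.2, 27.9, 42.7 and 26.6 CPM on LP (−0.55, SE 0.19, adjusted p = 0.129). CPT1B ranged over 10.1 to 13.1 CPM on HP and 7.52 to 14.5 CPM on LP (−0.20, adjusted p = 0.619), and ACADVL over 62.4 to 72.8 and 49.5 to 66.0 CPM (−0.28, adjusted p = 0.245). All 6 differences of the adapted line on LP were below 0, with a median of −0.33 against 0.01 over all genes. In EK of this experiment 5 of 6 were below 0, with a median of −0.29. Between the adapted line and EK, 0 of 6 were called on HP (1.44% of all genes, 2274 at an unadjusted p under 0.05) and 0 of 6 on LP (2.36%, 1806 at an unadjusted p under 0.05). Of the 18 further mitochondrial enzymes, 1 fell in the adapted line on LP, beside 0.78% of all genes (3 without the shallow EK library, beside 2.18%). The 1 gene was DECR1, from 23.2 ± 0.490 (n = 3) to 14.6 ± 2.18 CPM (n = 4), a log2 change of −0.67 (SE 0.14, adjusted p = 0.0213). LPIN1 rose there from 42.8 ± 12.5 to 190.1 ± 37.6 CPM (2.15, SE 0.26, adjusted p = 0.000762), and PLIN2, a lipid droplet coat gene, fell (−1.99, adjusted p = 0.0112). With edgeR, 0 of all genes were called for the difference in diet response between the adapted line and EK. The changes of DECR1, LPIN1 and PLIN2 are thus not shown to be particular to the adapted line.

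How the 8 genes varied among themselves is given by correlations of log2 CPM over libraries, which share groups and scaling and so carry no test. In the 18 libraries of experiment 1, the 6 enzyme genes correlated with each other at r of 0.67 (CPT2 with ACADVL) to 0.96 (cpt1ab with ACADVL). pparaa correlated with these 6 at −0.72 (ACADM) to −0.22 (ACADVL), and at 0.70 with PPARA. PPARA correlated with the 6 at −0.54 (ACADM) to 0.003 (ACADVL). All correlations of experiment 1, here and below, include the third pd1245 replicate on LP, and none was computed without it. That library held the highest pparaa value of the 18 (25.02 CPM) and the lowest of cpt1ab, CPT1B, CPT2, ACADVL and hadhaa. In the 14 libraries of experiment 2 the enzyme genes gave r of 0.48 (CPT2 with ACADM) to 0.92 (ACADVL with hadhaa).

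Among all other genes, HADHB was the closest in pattern to hadhaa (r = 0.97 over 18 libraries, 0.96 over the 14 of experiment 2), and RefSeq's annotation of the GRCz12tu assembly places hadhaa and hadhb next to each other. Within this search HADHB was also the closest to cpt1ab (0.94, and 0.82 in experiment 2) and to ACADVL (0.93 and 0.85). In experiment 1, cpt1ab and ACADVL correlated more closely with each other (0.96). ECI2, an isomerase, was second for hadhaa (0.95 and 0.89). For ACADM the closest genes were oxct1b (0.97 and 0.50) and ME1, which encodes malic enzyme (0.94 and 0.37). ME1 led for CPT1B (0.95 and 0.57), followed by BBOX1 (0.95 and 0.68), the last enzyme of carnitine synthesis. CPT2 was closest to serhl (0.97 and 0.51) and MOGS (0.97 and 0.54), a glucosidase of glycoprotein processing. The second gene for ACADVL was ETFDH (0.93 and 0.46), which passes electrons of beta-oxidation to the respiratory chain, and that for cpt1ab was mgll, a monoglyceride lipase (0.93 and 0.01). The receptors were closest to RAPGEF6 (0.96) and PAPOLA (0.94) for pparaa, and to VDR (0.94) and CUL4B (0.90) for PPARA, in experiment 1 alone.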

How the data were processed

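Counts of experiment 1 are whole reads per gene as deposited, made by the authors with FastQC 0.11.7, Trim Galore 0.6.5, STAR 2.7.3a and HTSeq 0.11.1 per the submitters' processing notes; entries naming no gene (14.62 to 16.76% of reads) were left out. The deposited expected counts of experiment 2, made by the authors with fastp 0.24.0, STAR 2.7.11 and featureCounts of Subread 2.1.1 per the same notes, were partly fractional (78.32 to 84.85% of values above 0 whole within 0.005) and were rounded; 92 spike-ins were left out. The build is GRCz11; the annotation and the strand setting of counting are not given in the sources used here. Per the labels' protocols, experiment 1 used strand-specific poly(A) libraries and experiment 2 stranded single-end libraries with molecular identifiers, whose collapsing is not stated, so the experiments were analysed apart. The deposited CPM and variance-stabilised values were not used.

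Each experiment was fitted in R 4.3.3 with edgeR 4.0.16 (TMM scaling, filterByExpr, 1 coefficient per group, quasi-likelihood F test, 2-sided), with 22742 and 16671 genes tested and a biological coefficient of variation of 12.5% and 16.0%; SE was obtained by dividing the log2 fold change by √F. Samples were grouped by the labels. Replicate numbers gave no clear sign of pairing: in 0 of 15 and 0 of 6 pairs of groups did every same-numbered pair correlate above 0.1. Single pairs reached 0.13 and 0.17, and with so few libraries a group this check cannot exclude pairing. Alternatives were RLE scaling, no filter, a replicate block, only the groups compared, DESeq2 1.42.0 (rounded counts) and leaving out single libraries; list counts without the library that stands apart in each experiment were added after seeing the data. The 8 genes and the lists were chosen with earlier results of these data known. From each list up to 3 called genes with the smallest p in a comparison are named, besides HADHA, HADHB and the ACADSB genes, and for each of the 8 genes the 2 genes most correlated with it. HADHA, HADHB and ACADSB were chosen after their values were seen. Correlations were taken over log2 CPM (prior count 2). The fitting was also run on simulated counts, whose outcome is not given here. No simulated library was made to stand apart, so that run does not cover the effect of such a library.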

Additional observations from a re-analysis of the deposited data

Results flagged for a closer look

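The diet response of CPT2 differed between pd1245 and EK in experiment 1 by a test of the difference itself (−1.21 on the log2 scale, SE 0.23, edgeR adjusted p = 0.00824). CPT2 fell in pd1245 on LP, and its EK values overlapped between the diets.

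In the groups of 4 libraries of experiment 2, 2 values lay far from the other 3 of their group by Dixon's criterion, among 14 combinations of gene and group looked at, and chance alone marks about 1 in 20. CPT1B was at 8.92 CPM in replicate 2 of EK on LP, where the other 3 libraries held 12.7 to 13.4 CPM. ACADVL was at 76.1 CPM in replicate 1 of EK on LP, where the others held 66.8 to 67.3 CPM. Neither gene was called in experiment 2.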

How the results depend on the processing

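Of 423 recomputed values for 35 results on single genes, 325 kept their direction and side of the threshold, 67 lost and 31 gained a call, and 0 changed sign. The 35 results are those called in the main fit, which were 19, or in at least 1 alternative. Only the 19 could lose a call, so the 67 losses are not to be read against all 423 values. Counts of the 8 genes called were as follows when they moved by over 1.5 times. Fitting only the compared groups gave 0 in place of 6 for diet in pd1245, 1 in place of 4 for pd1245 against EK on LP, 4 in place of 1 for pd1116 against EK on LP, 5 in place of 2 for pd1116 against pd1245 on HP, 0 in place of 1 on LP, and 1 in place of 0 for the diet response of pd1116 against EK. For pd1116 against EK on LP, no filter gave 2 and DESeq2 2, and for pd1116 against pd1245 on HP, RLE scaling, no filter and the replicate block each gave 1. In the adapted line on LP against HP the replicate block gave 0 and DESeq2 2 in place of 1.

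Counts over all genes also moved. With only the compared groups they went from 35 to 83 (EK diet, experiment 1), 1545 to 3636 (pd1116 diet), 4346 to 0 (pd1245 diet), 659 to 993 and 1519 to 3192 (pd1116 against EK on HP and LP), 7232 to 3310 (pd1245 against EK on LP), 4590 to 585 (pd1116 against pd1245 on LP), 1 to 598 and 1296 to 369 (diet response of pd1116 and of pd1245 against EK), 314 to 702 (adapted diet) and 240 to 136 (adapted against EK on HP). No filter gave 57 for EK diet and 3 for the pd1116 response in experiment 1, and 93 in place of 13, 550 in place of 314 and 377 in place of 240 in experiment 2 for EK diet, adapted diet and the lines on HP. The replicate block gave 19 and 0 for EK diet and the pd1116 response in experiment 1 and 28 for EK diet in experiment 2. DESeq2 gave 121, 154 and 2031 for EK diet, the pd1116 response and the pd1245 response in experiment 1, and 132, 724 and 1 for EK diet, adapted diet and the adapted response in experiment 2. The cause was not tested.

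Leaving out single libraries gave, over all genes, 1 to 175 (EK, LP minus HP), 520 to 3506 (pd1116, LP minus HP), 1278 to 5810 (pd1245, LP minus HP), 392 to 1246 (pd1116 minus EK on HP), 752 to 2968 (pd1116 minus EK on LP), 379 to 2169 (pd1245 minus EK on HP), 1549 to 4557 (pd1116 minus pd1245 on HP), 2288 to 5899 (pd1116 minus pd1245 on LP), 0 to 226 (diet by line, pd1116 against EK), 391 to 2849 (diet by line, pd1245 against EK), 60 to 756 (adapted pd1245, LP minus HP, experiment 2), 126 to 279 (adapted pd1245 minus EK on HP, experiment 2), 247 to 474 (adapted pd1245 minus EK on LP, experiment 2), 0 to 1 (diet by line, adapted pd1245 against EK, experiment 2). For the 8 genes it gave 1 to 3 (pd1116, LP minus HP), 1 to 7 (pd1245, LP minus HP), 0 to 5 (pd1116 minus EK on LP), 0 to 1 (pd1245 minus EK on HP), 2 to 5 (pd1245 minus EK on LP), 1 to 4 (pd1116 minus pd1245 on HP), 0 to 2 (pd1116 minus pd1245 on LP), 0 to 1 (diet by line, pd1116 against EK), 1 to 2 (diet by line, pd1245 against EK), 0 to 1 (adapted pd1245, LP minus HP, experiment 2). The receptors of experiment 2 were too low to test, at 0 to 7 counts per library.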

Other observations

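Of 9 lipolysis genes tested in experiment 1, those named here were called on LP, and the rest are not described. For the named genes, EK values and tests of a difference between lines are not given. No response of the list as a whole, or particular to a mutant, is thus shown. LPL, the lipoprotein lipase that frees fatty acids from circulating fat, rose in pd1245 from 119 ± 43.9 to 318 ± 90.0 CPM (SD, n = 3; 1.42, SE 0.26, edgeR adjusted p = 0.0022) and in pd1116 from 89.4 ± 8.03 to 169.6 ± 44.7 CPM (0.92, adjusted p = 0.0347). PNPLA2, the adipose triglyceride lipase, rose in pd1245 (0.61, adjusted p = 0.0346, and 0.0702 without replicate 3 on LP) and pd1116 (0.95, adjusted p = 0.00779), and its inhibitor g0s2 fell in pd1116 (−1.93, adjusted p = 0.0245). In experiment 2, LPL rose in the adapted line from 31.0 ± 6.34 (n = 3) to 114 ± 23.6 CPM (n = 4; 1.88, SE 0.28, adjusted p = 0.00292). Both ENSDARG00000087697 and ENSDARG00000098720 carry the symbol LPL, and each LPL value given here is of a single gene. Which of them is not stated, so the LPL values of different lines need not be of the same gene. On LP against HP, 9.33% of all genes were called higher in pd1245, 2.76% in pd1116 and 1.1% in the adapted line. In pd1116 4.04% were called lower.

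Of 13 fatty acid synthesis genes tested in experiment 1, 2 rose and 4 fell in pd1245 on LP, beside 9.33% of all genes called higher and 9.78% lower, and 1 rose and 3 fell without replicate 3 on LP. SREBF1, a transcription factor of lipid synthesis, rose in pd1245 from 35.2 ± 4.30 to 61.6 ± 5.02 CPM (0.81, adjusted p = 0.00119) and in pd1116 from 35.3 ± 3.09 to 61.4 ± 12.0 CPM (0.80, adjusted p = 0.00118). The elongase ELOVL5 fell in pd1245 from 41.9 ± 12.1 to 19.6 ± 6.35 CPM (−1.09, adjusted p = 0.00443), and ELOVL6 fell in pd1245 (−0.55, adjusted p = 0.00559) and pd1116 (−0.44, adjusted p = 0.0336).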
